A study of Mus musculus with 11 samples.

Results

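The 8 genes described here encode the core of MHC class I antigen presentation, and they were read in RNA sequencing of gonadal white adipose tissue (WAT) from 11 male C57Bl6/J mice. The genes were chosen by symbol (B2m, H2-K1, H2-D1, Tap1, Tap2, Tapbp, Nlrc5 and Erap1), and all 8 were among the 12787 genes listed in the deposited table. The 5 HFD control mice were fed a 60% high fat diet (HFD) with vehicle for 20 weeks. The 6 IMC-treated mice were fed the same HFD for 20 weeks with 0.06% w/w iodomethylcholine (IMC), an inhibitor of the gut bacterial enzyme that releases trimethylamine from choline. Each mouse gave 1 library, and mice are numbered within a group in the order of their sample entries, so the numbers do not pair mice. Values are log2 CPM, read counts relative to library size, scaled by the upper quartile and on a log2 scale, and a positive difference means higher in IMC-treated mice. The depth on listed genes ran from 22320022 to 25155366 reads per library, and the member with the fewest reads, Nlrc5, had at least 866 in every mouse.

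Nearly every nucleated cell cuts its own proteins into peptides and displays them at the surface on MHC class I molecules for inspection by CD8+ T cells and natural killer cells. A class I molecule is a heavy chain (H2-K1 and H2-D1 encode the classical chains of this strain) paired with the light chain beta-2-microglobulin, from B2m. Peptides are pumped into the endoplasmic reticulum by the transporter made of TAP1 and TAP2, handed to the heavy chain with the help of tapasin, from Tapbp, and trimmed to length by the aminopeptidase ERAP1. NLRC5 is the transactivator of class I genes, and interferon gamma raises the whole set, in part through IRF1. Whole adipose tissue mixes adipocytes, stromal cells and immune cells, all of which carry class I, so a lower or higher level in bulk RNA cannot tell apart fewer cells of a type and less RNA per cell.

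Class I heavy chain promoters are known for a short upstream enhancer that joins an NF-kappaB site to an interferon response element, followed by a CRE-like and a CCAAT-like site. Upstream sequences of B2m and the heavy chains, which pair in 1 molecule, are printed because H2-D1 differed between the groups relative to B2m and to H2-K1. The sequences are from RefSeq, build GRCm38.p6, which is the same build as mm10, and 6 of the 8 members matched the table. Tap2 and Nlrc5 are named only. H2-K1 had 2 starts in the table, and the one farther upstream of them was used. The RefSeq gene spans of H2-K1 and Erap1 reach farther upstream than the starts of the table, so their windows lie inside those spans, and the window of H2-D1 lies in an exon of a longer GENCODE transcript. All 200 bases of the Tap1 window also lie in GENCODE exons. For the heavy chains only the enhancer block is shown. The first line gives up to 200 bases before the transcription start of B2m, 5′ to 3′ on the strand of the gene as in the other lines, and capitals mark the motifs that were searched.
B2m, chr2:122147487-122147685, plus strand: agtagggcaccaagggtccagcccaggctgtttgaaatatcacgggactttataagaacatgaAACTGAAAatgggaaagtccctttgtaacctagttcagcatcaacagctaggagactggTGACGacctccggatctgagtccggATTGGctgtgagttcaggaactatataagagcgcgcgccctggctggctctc
H2-K1 enhancer block, chr17:34000430-34000457, minus strand: GGGATTCCCcatctccacagTTTCACTT
H2-D1 enhancer block, chr17:35262924-35262951, plus strand: GGGATTCCCcatctcctcagTTTCACTT

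The motifs were searched on both strands in the 200 bases before each start of the table, and they do not overlap each other in the lines above. The NF-kappaB letters GGGATTCCC were found upstream of 2 of the 6 members, H2-K1 and H2-D1, and in 0.213% of all 32851 windows of that length in the table. The interferon regulatory factor core AANNGAAA was found upstream of 3 of 6, B2m, H2-K1 and H2-D1, and in 17.0% of all windows. The CRE core TGACG was found upstream of 4 of 6 members (B2m, H2-K1, H2-D1 and Tap1) and in 15.7% of all windows, and CCAAT upstream of 4 of 6 (B2m, H2-K1, H2-D1 and Tapbp) and in 29.3%. The upstream windows of H2-K1 and H2-D1 were 90.7% identical, at 127 of 140 aligned bases. Within the 28-base enhancer block they differed at 1 base, A17T, counted from 1 at the first base of the block with the H2-K1 base first, and that base lies between the 2 motifs. A match of letters is a description of the sequence and not evidence that a factor binds there in these mice.

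Of the 8 members, 5 lie in the MHC region of chromosome 17. Coordinates are those of RefSeq in GRCm38.p6. H2-K1 spans positions 33996012 to 34000619 on the minus strand, Tapbp 33919478 to 33929290, Tap1 34187556 to 34197225, Tap2 34204479 to 34216321 and H2-D1 35263094 to 35267497. B2m lies on chromosome 2 at 122147687 to 122153082, Nlrc5 on chromosome 8 at 94434335 to 94527272 and Erap1 on chromosome 13 at 74639573 to 74693205. Heavy chain genes resemble each other, and 14.3% of the 50-base stretches of the H2-D1 transcript and 8.79% of those of H2-K1 occur in the transcript of another gene. B2m, Tapbp, Nlrc5 and Erap1 overlap the span of another RefSeq gene. In GENCODE, on either strand, 1053 exon bases of Tapbp, 834 of Erap1, 698 of Tap2, 212 of Tap1 and 78 of Nlrc5 also lie in an exon of another gene. The strand setting of the read count is not given in the sources used here, so how reads on such overlaps were counted is not known.

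HFD mouse 4 stood apart from the other HFD control mice in these genes, and every result below is given with and without it where that changes the call. It was the highest HFD control mouse for 8 of 8 members, whereas it was the highest for 19.6% of all listed genes. It was the highest of all 11 mice for 6 of the 8, with B2m and Tapbp as the exceptions. Compared with the mean of the other HFD control mice, Tap1 was 1.99-fold higher in mouse 4. On the log2 scale Nlrc5 was 0.78 higher, H2-K1 0.55, Tap2 0.39, B2m 0.23, Erap1 0.22, and H2-D1 and Tapbp 0.17 each. At the other end, HFD mouse 1 was the lowest HFD control mouse for 7 of 8 members. The SD was larger in the HFD control group than in the IMC-treated group for 8 of 8 members, while the median SD over all listed genes was 0.13 log2 in each group. These HFD control SDs include mouse 4 and were not computed without it, so the count may rest on that mouse.

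**Figure D1:**
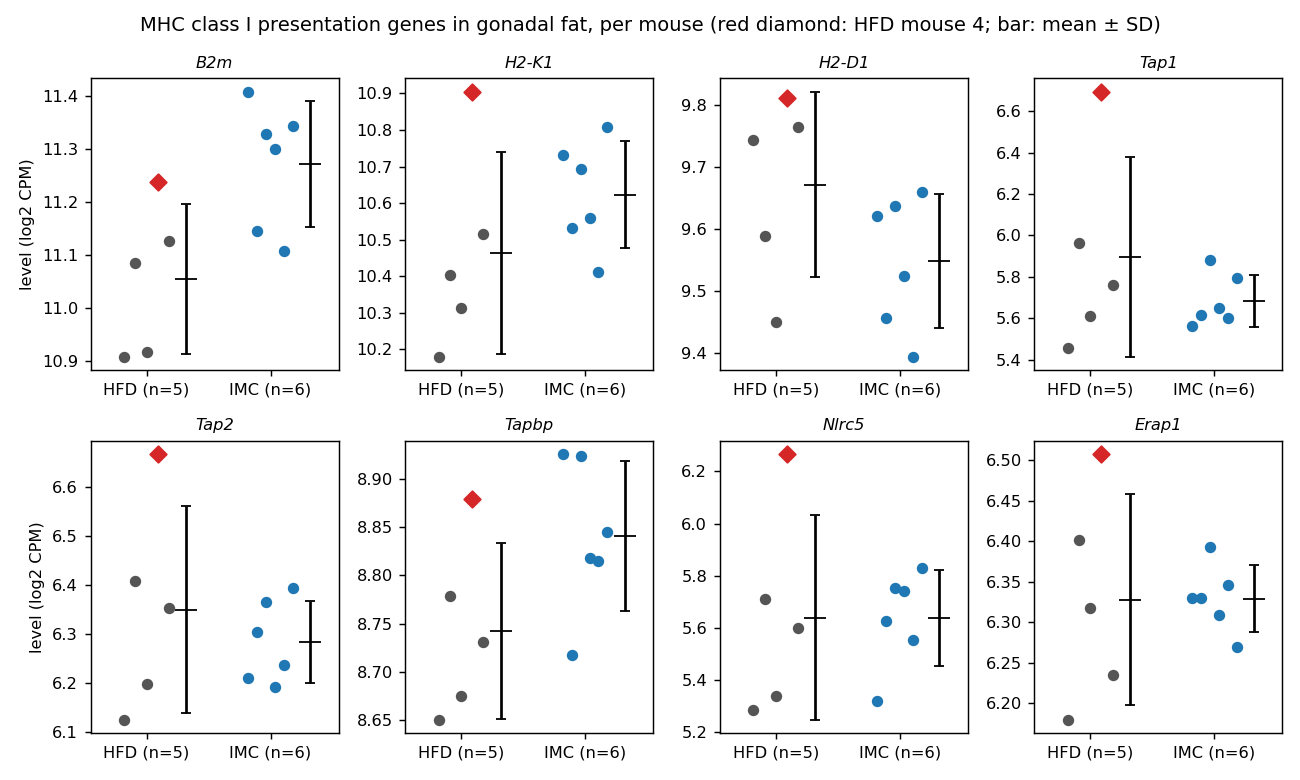
Level of each of the 8 genes in log2 CPM (vertical axis, a separate scale for each gene) for 5 HFD control mice (grey, HFD mouse 4 as a red diamond) and 6 IMC-treated mice (blue), with the mean ± SD as a bar. The diamond is the highest HFD control mouse in all 8 panels, and the groups overlap in all 8.

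B2m, the light chain that every classical class I molecule needs, was the member nearest to a difference between the groups. In HFD control mice 1 to 5 it measured 10.91, 11.08, 10.92, 11.24 and 11.13 log2 CPM. In IMC-treated mice it ranged from 11.11 to 11.41 with a median of 11.31. All 6 IMC-treated mice lay above the HFD control median and 4 of 6 lay above every HFD control mouse. The mean was 11.06 ± 0.14 (SD, n = 5) with HFD alone and 11.27 ± 0.12 (SD, n = 6) with IMC, a log2 difference of 0.22 (SE 0.09, 95% interval 0.03 to 0.41), or 1.16-fold with an interval of 1.02 to 1.33. By limma with Benjamini-Hochberg adjustment over all 12787 genes the adjusted p was 0.0648, so B2m was not called at 0.05. It was called without HFD mouse 4 (0.26, limma adjusted p = 0.0392), without IMC mouse 5 (0.25, limma adjusted p = 0.0468, against 39.4% of all genes called), by limma voom on the recovered reads (0.22, adjusted p = 0.0441) and by limma without the trend (0.22, adjusted p = 0.0425). Over all other settings and left-out mice the limma adjusted p reached at most 0.157.

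H2-K1, the K heavy chain, measured 10.18, 10.40, 10.31, 10.90 and 10.52 log2 CPM in HFD control mice 1 to 5. In IMC-treated mice it ranged from 10.41 to 10.81 with a median of 10.63. HFD mouse 4 lay above all 6 IMC-treated mice, HFD mouse 5 lay inside their range, and the other 3 HFD control mice lay below all of them. The log2 difference was 0.16 (SE 0.12, 95% interval -0.10 to 0.42, limma adjusted p = 0.304). It was 0.27 without HFD mouse 4 (limma adjusted p = 0.0425), and H2-K1 was then called.

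H2-D1, the D heavy chain, lay on the other side. It measured 9.74, 9.59, 9.45, 9.81 and 9.76 log2 CPM in HFD control mice, and 9.39 to 9.66 with a median of 9.57 in IMC-treated mice. All 6 IMC-treated mice lay below the HFD control median, and 1 lay below every HFD control mouse. The log2 difference was -0.12 (SE 0.08, 95% interval -0.29 to 0.04, limma adjusted p = 0.219), and without HFD mouse 4 it was -0.09 (limma adjusted p = 0.416).

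Tap1, a subunit of the peptide transporter, had the widest interval of the 8. In HFD control mice it measured 5.45, 5.96, 5.61, 6.69 and 5.76 log2 CPM, and in IMC-treated mice 5.56 to 5.88 with a median of 5.63. The 6 IMC-treated mice lay inside the HFD control range, which mouse 4 alone stretched above 5.96. The log2 difference of -0.21 (SE 0.17, 95% interval -0.58 to 0.15, limma adjusted p = 0.341) was -0.01 without mouse 4 (limma adjusted p = 0.917). Tap2, the other subunit, measured 6.13, 6.41, 6.20, 6.67 and 6.35 log2 CPM in HFD control mice and 6.19 to 6.39 with a median of 6.27 in IMC-treated mice, again inside the HFD control range. Its log2 difference was -0.07 (SE 0.08, 95% interval -0.24 to 0.11, limma adjusted p = 0.556), and it was 0.01 without HFD mouse 4 (limma adjusted p = 0.889).

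Tapbp encodes tapasin, which bridges the transporter and the empty heavy chain. It measured 8.65, 8.78, 8.67, 8.88 and 8.73 log2 CPM in HFD control mice and 8.72 to 8.93 with a median of 8.83 in IMC-treated mice. Of the 6 IMC-treated mice, 5 lay above the HFD control median and 2 above every HFD control mouse. The log2 difference was 0.10 (SE 0.06, 95% interval -0.02 to 0.22, limma adjusted p = 0.177), and 0.13 without HFD mouse 4 (limma adjusted p = 0.0788).

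Erap1, the trimming enzyme, measured 6.18, 6.40, 6.32, 6.51 and 6.23 log2 CPM in HFD control mice and 6.27 to 6.39 with a median of 6.33 in IMC-treated mice. Its log2 difference was 0.0013 (SE 0.06), with a 95% interval of -0.12 to 0.12 (limma adjusted p = 0.989). Nlrc5, the transactivator, measured 5.29, 5.71, 5.34, 6.27 and 5.60 log2 CPM in HFD control mice and 5.32 to 5.83 with a median of 5.68 in IMC-treated mice. Its log2 difference was -0.0022 (SE 0.15, 95% interval -0.33 to 0.32, limma adjusted p = 0.993), and 0.15 without HFD mouse 4 (limma adjusted p = 0.287). The signs of the Erap1 and Nlrc5 differences depend on the scaling and on single mice and carry no direction.

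None of the members was called by limma, 0 of 8, against 40.9% of all listed genes called (5236 of 12787). At an unadjusted p under 0.05 limma gave 1 member, B2m, and limma voom and limma without the trend each called 1, again B2m, against 40.8% and 39.5% of all genes. Without HFD mouse 4, limma called 2 members, B2m and H2-K1, against 35.7% of all genes, and both were higher in IMC-treated mice. The groups did not overlap for 0 of 8 members, against 23.1% of all genes. The median absolute log2 difference of the members was 0.11, and that of all genes was 0.17. With all 11 mice, 4 differences were positive and 4 negative, counting Erap1 and Nlrc5, whose signs carry no direction. Without HFD mouse 4, B2m (0.26), H2-K1 (0.27), Tapbp (0.13), Nlrc5 (0.15), Erap1 (0.05) and Tap2 (0.01) were positive. Tap1 (-0.01) and H2-D1 (-0.09) were then negative. A p that misses the threshold does not show equal levels, and the intervals above bound what these mice allow, from 0.12 on the log2 scale for Erap1 to 0.58 for Tap1.

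**Figure D2:**
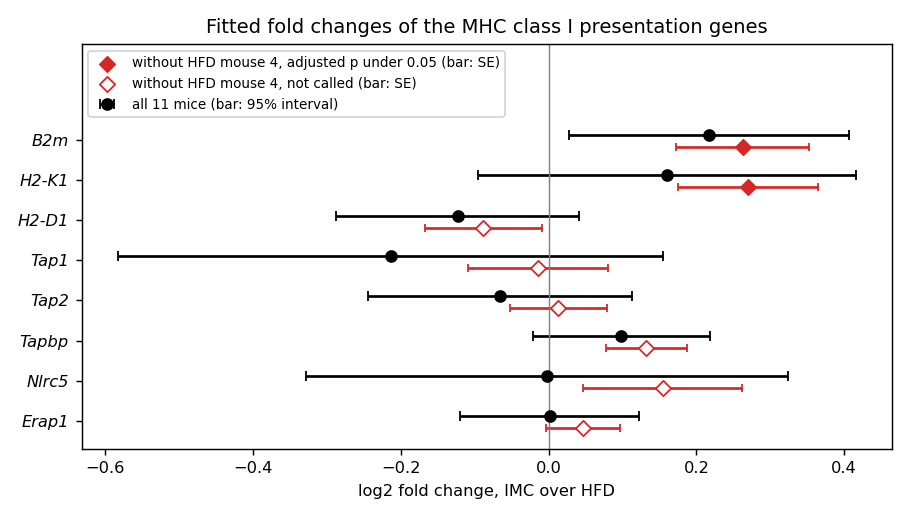
Log2 difference between IMC-treated and HFD control mice (horizontal axis) for the 8 genes, as fitted by limma over all 11 mice (black, bar: 95% interval) and without HFD mouse 4 (red diamonds, bar: SE, filled where the adjusted p is under 0.05). Only B2m has a black interval that leaves out 0, from 0.03 to 0.41, and the filled diamonds are B2m at 0.26 and H2-K1 at 0.27.

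Divided by the length of the longest protein-coding GENCODE transcript of each gene, the 8 genes had the same order in both groups. In CPM per kilobase, B2m measured 2484 ± 244 (SD, n = 5) with HFD alone and 2884 ± 233 (SD, n = 6) with IMC. H2-K1 followed at 885 ± 181 and 978 ± 98.6, H2-D1 at 389 ± 39.2 and 357 ± 26.3, and Tapbp at 148 ± 9.48 and 158 ± 8.50 CPM per kilobase. The transporter was lower, with Tap2 at 23.9 ± 3.59 and 22.7 ± 1.32 and Tap1 at 21.2 ± 8.09 and 17.5 ± 1.56. Erap1, at 14.3 ± 1.30 and 14.3 ± 0.404, and Nlrc5, at 6.79 ± 2.02 and 6.61 ± 0.805, came last. Ranges of neighbours did not overlap in either group from B2m down to Tap2. In HFD control mice the range of Tap1, 14.9 to 35.0 CPM per kilobase, overlapped those of Tap2 (20.3 to 29.5) and Erap1 (12.8 to 16.1), so these neighbours cannot be ordered there. In IMC-treated mice the same 3 genes did not overlap.

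The difference between 2 genes within a mouse does not depend on how the library was scaled, and 8 such differences were compared between the groups with exact two-sided p-values from the 462 ways to divide the mice into 5 and 6 (exact permutation), with Benjamini-Hochberg adjustment over the 8. Of these, 3 passed an adjusted p of 0.05 and 1 did not overlap between the groups. Each that passed holds H2-D1 or B2m, so they are not separate results. Of single genes, 40.9% were called by limma and 23.1% did not overlap. The share of all gene pairs that would pass was not computed. H2-D1 minus B2m, the D heavy chain relative to the light chain, measured -1.16, -1.50, -1.47, -1.43 and -1.36 on the log2 scale in HFD control mice 1 to 5, and -1.79 to -1.69 in IMC-treated mice. All 6 IMC-treated mice lay below all 5 HFD control mice. The mean fell by 0.34, which is 1.27-fold less H2-D1 for each B2m read (exact p = 0.00216, the smallest that 5 against 6 mice allow, adjusted p = 0.0173). The call was kept without each HFD control mouse and without IMC mouse 3. Without IMC mouse 1, 2, 4, 5 or 6 the adjusted exact p was 0.0635, with the difference between -0.33 and -0.35, since 5 against 5 mice give no exact p below 0.00794. Of the 50-base stretches of H2-D1, 14.3% occur in the transcript of another gene, against 0% for B2m. How reads on such stretches were handled in alignment and counting could move this ratio, and its part was not tested.

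Tap1 minus B2m measured -5.45, -5.12, -5.31, -4.54 and -5.36 on the log2 scale in HFD control mice 1 to 5 and -5.85 to -5.45 in IMC-treated mice, with 5 of 6 IMC-treated mice below all HFD control mice. The mean fell by 0.43 (exact p = 0.00433, adjusted p = 0.0173). Without HFD mouse 4 the difference was -0.28 and was still called (adjusted exact p = 0.0381). Without IMC mouse 1, 2, 4, 5 or 6 the adjusted exact p was 0.0635.

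H2-K1 minus H2-D1, the balance of the 2 heavy chains, measured 0.44, 0.81, 0.86, 1.09 and 0.75 on the log2 scale in HFD control mice 1 to 5 and 1.02 to 1.15 in IMC-treated mice. Of the HFD control mice only mouse 4 reached the IMC-treated range, and the IMC-treated mice varied little, with an SD of 0.05 against 0.24. The mean was 0.28 higher, a 1.22-fold shift towards H2-K1 (exact p = 0.0108, adjusted p = 0.0289). This call rested on the full number of mice: it was kept without HFD mouse 1 (0.19, adjusted exact p = 0.0476) and without HFD mouse 4 (0.36, adjusted exact p = 0.0190), and without any other mouse the adjusted exact p lay between 0.0635 and 0.106. The heavy chain transcripts share stretches with each other and with other class I genes. How reads on those stretches were handled in alignment and counting could move this ratio, and its part was not tested.

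The other 5 differences did not pass. H2-K1 minus B2m differed by -0.06 (adjusted exact p = 0.498), Tap1 minus Tap2 by -0.15, Erap1 minus Tap1 by 0.21 and Nlrc5 minus B2m by -0.22 (each adjusted exact p = 0.270), and Tapbp minus Tap1 by 0.31 (adjusted exact p = 0.0952). Without HFD mouse 4 these differences were smaller in size, at 0.0075 for H2-K1 minus B2m, -0.03 for Tap1 minus Tap2, 0.06 for Erap1 minus Tap1, -0.11 for Nlrc5 minus B2m and 0.15 for Tapbp minus Tap1. Tapbp minus Tap1 passed only when HFD mouse 1 was left out (0.40, adjusted exact p = 0.0381).

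**Figure D3:**
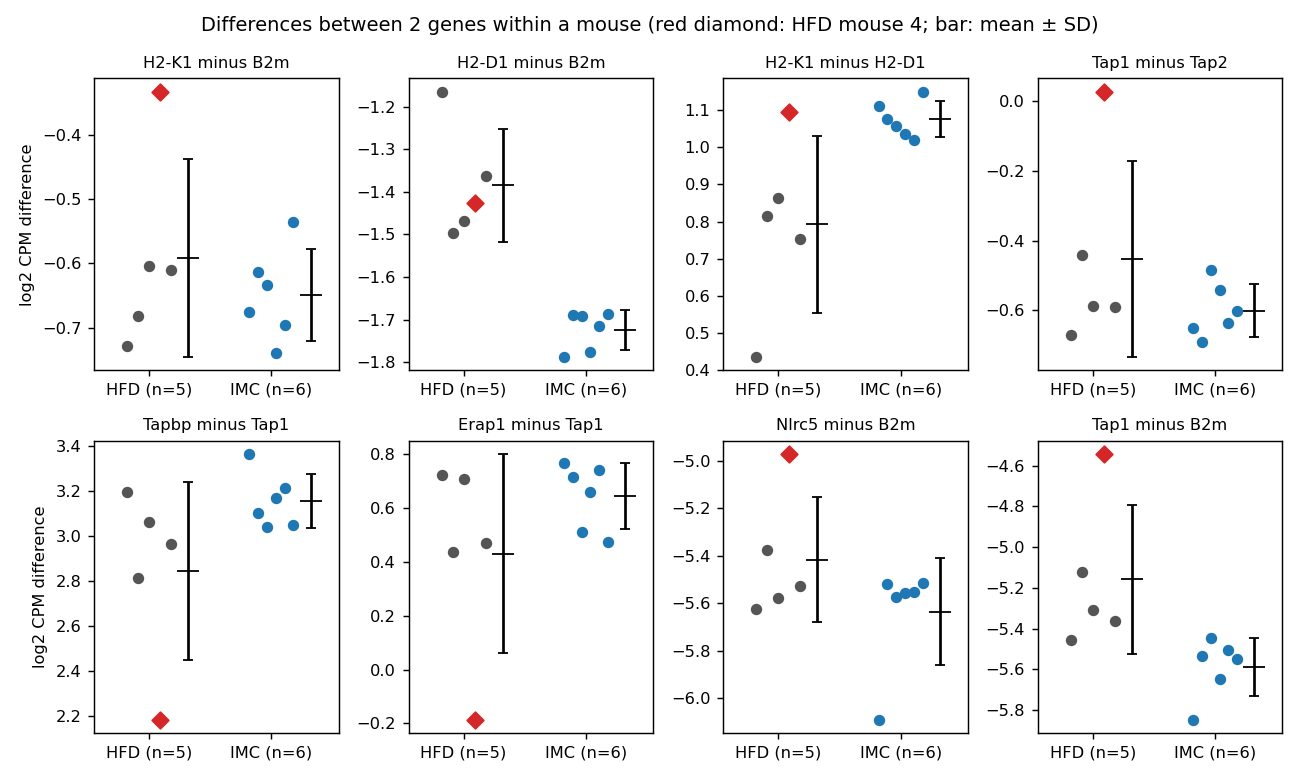
Difference in log2 CPM between 2 genes of the same mouse (vertical axis, a separate scale for each pair) for 5 HFD control mice (grey, HFD mouse 4 as a red diamond) and 6 IMC-treated mice (blue), with the mean ± SD as a bar. H2-D1 minus B2m is the pair without overlap, with HFD control mice at -1.50 or above and IMC-treated mice at -1.69 or below.

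Genes around the class I route were read in the same limma fit, in 8 lists taken as a whole, against the same background of 40.9% of all genes called, 2556 higher and 2680 lower. Of 32 other class I heavy chain genes 15 were listed, and 3 rose and 3 fell. Cd1d1, which presents lipids to natural killer T cells, rose by 0.89 log2 (SE 0.09, limma adjusted p = 3.5e-05), from 6.52 to 7.08 in HFD control mice to 7.61 to 7.92 log2 CPM in IMC-treated mice. Hfe, the class I-like regulator of iron uptake, rose by 0.42 (limma adjusted p = 0.000219) and H2-T22 by 0.62 (limma adjusted p = 0.0174). H2-K2 fell by 0.47 (limma adjusted p = 0.00218), H2-T23, the mouse Qa-1 chain read by natural killer cells, fell by 0.42 (limma adjusted p = 0.00345), and H2-M3, which presents formylated peptides, fell by 0.36 (limma adjusted p = 0.00923). Of their 50-base stretches, H2-T22 shares 44.7%, H2-T23 28.8% and Cd1d1 25.8% with other transcripts, so their values are uncertain. With HFD mouse 4 left out, 4 rose and 3 fell, and the added gene was H2-Q4 (0.40, limma adjusted p = 0.0135). H2-Q4 shares 24.3% of its 50-base stretches with other transcripts, so its value is uncertain too.

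Of 13 chaperones and peptidases that serve class I assembly, all were listed, 1 rose and 2 fell. Bcap31, an endoplasmic reticulum cargo receptor for class I, rose by 0.37 (limma adjusted p = 0.000404). Pdia3, the oxidoreductase of the peptide loading complex, fell by 0.37 (limma adjusted p = 0.00625), and its partner Calr, calreticulin, fell by 0.32 (limma adjusted p = 0.0285). The counts were 1 and 3 without HFD mouse 4, the added one being Hspa5. Of 7 genes of the immunoproteasome, which produces peptides suited to class I, and of proteasome activators and assembly, 1 rose and 2 fell. Psme3 rose by 0.12 (limma adjusted p = 0.0383), Psme1 fell by 0.26 (limma adjusted p = 0.0141) and Psmb10 fell by 0.23 (limma adjusted p = 0.0236). Psme1 alone was still called, as lower, without HFD mouse 4.

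Of 22 transcription factors known at class I promoters, none rose and 10 fell, for a median of -0.15 log2 over the list and -0.03 over all genes. Irf3 fell by 0.30 (limma adjusted p = 0.000818), Creb1 by 0.23 (limma adjusted p = 0.00215) and Nfya, a subunit of the CCAAT-binding complex, by 0.36 (limma adjusted p = 0.00252). Irf1, which carries the interferon gamma response to class I, was not called and differed by -0.29 (limma adjusted p = 0.124), and by -0.12 without HFD mouse 4 (limma adjusted p = 0.206). Of 12 interferon receptors, kinases and regulators 10 were listed, and 5 fell and 0 rose. Socs1, a feedback inhibitor of the kinases, fell by 0.85 (limma adjusted p = 0.00254), Tyk2 by 0.29 (limma adjusted p = 0.00362) and Ifnar1 by 0.18 (limma adjusted p = 0.0197). The numbers that fell without HFD mouse 4 were 8 transcription factors and 4 genes of the receptor list.

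Of 41 interferon-stimulated genes 35 were listed, and 1 rose and 7 fell, with a median of -0.20 log2. Samhd1, a nucleotide hydrolase that restricts viruses, fell by 0.43 (limma adjusted p = 0.0023), Trim25 by 0.36 (limma adjusted p = 0.0071) and Oas1a by 0.52 (limma adjusted p = 0.0101). Parp9 rose by 0.29 (limma adjusted p = 0.0158). Leaving out HFD mouse 4, 3 rose and 6 fell. Of 12 MHC class II genes 8 were listed, none rose and 2 fell. These were the lysosomal reductase Ifi30, by 0.58 (limma adjusted p = 0.000117), and the protease Ctss, by 0.65 (limma adjusted p = 0.00147), while H2-DMa, an editor of class II peptides, differed by -0.23 (limma adjusted p = 0.228), and by -0.05 without HFD mouse 4. When HFD mouse 4 was left out, 1 rose, H2-DMb1, and 2 fell. Of 15 receptors for class I and related receptors on lymphocytes and myeloid cells, 7 were listed and 2 fell. These were the inhibitory receptors Pirb, by 0.66 (limma adjusted p = 0.00055), and Lilrb4a, by 0.87 (limma adjusted p = 0.00171). Klra2 differed by -0.36 (limma adjusted p = 0.376).

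**Figure D4:**
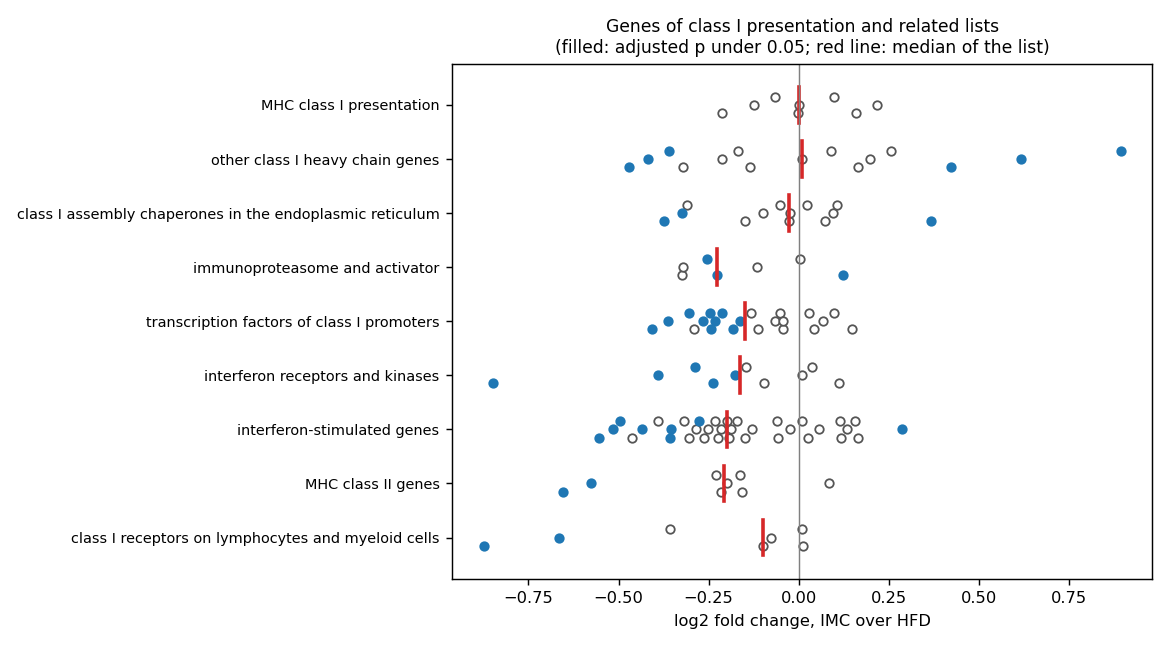
Log2 difference between IMC-treated and HFD control mice (horizontal axis) for each listed gene of the 8 members and of 8 related lists (vertical axis), with genes at an adjusted p under 0.05 filled and the median of each list as a red line. The members lie within 0.22 of 0 and none is filled, and Cd1d1 at 0.89 and Lilrb4a at -0.87 are the outermost genes.

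Cell type markers moved between the groups, and these values stand beside every level above. The summed level of 4 of 4 leukocyte markers was 1591 to 2054 CPM in HFD control mice and 986 to 1380 CPM in IMC-treated mice, and 4 of 4 fell. The 10 macrophage markers summed to 6803 to 9199 CPM and 4035 to 6488 CPM, and 7 fell. The 8 adipocyte markers summed to 9265 to 13267 CPM and 18145 to 22178 CPM, and 8 of 8 rose, so the labelled tissue carried its defining markers in every mouse. Of 6 endothelial markers 1 rose, of 5 fibroblast markers 3 fell (2 without HFD mouse 4), of 4 listed mesothelial markers 1 fell, of 5 listed dendritic cell markers 1 rose and 2 fell (1 without HFD mouse 4), and 2 of 2 listed muscle markers rose. None of the 5 B cell and 0 of the 5 epididymis markers was listed, 1 of 8 T cell markers was (Cd2), and 5 of 7 natural killer markers were, with 0 called. The part of this shift in cell types in the class I levels was not tested.

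In HFD mouse 4 the summed leukocyte markers, at 1856 CPM, and macrophage markers, at 7759 CPM, lay inside the range of the other HFD control mice. The summed dendritic cell markers, at 536 CPM, were the lowest of the HFD control mice. Most of that sum was Itgax, at 9.01 log2 CPM in mouse 4 and 9.29 to 9.48 in the others. Xcr1 (2.17 against at most 1.69) and Flt3 (2.54 against at most 2.32) were highest in mouse 4. Zbtb46 (2.97) lay inside the range of the other HFD control mice, and Cd209a (1.45) lay below it. By single genes, mouse 4 was the highest HFD control mouse for 2 of 4 leukocyte, 2 of 10 macrophage and 2 of 5 listed dendritic cell markers. Some genes outside the members were high in that mouse too. Psmb9 measured 5.79 log2 CPM there and at most 5.01 in the other HFD control mice, Irf1 6.89 against 5.92 to 6.18 and Gbp2 7.57 against 6.19 to 7.18. Class II genes were high too, with H2-Aa at 11.39 against 10.23 to 10.65 and H2-Eb1 at 10.74 against 9.49 to 9.87 log2 CPM. The T cell marker Cd2 measured 3.75 against 2.30 to 2.75, the natural killer marker Nkg7 3.49 against 1.68 to 3.04, and mouse 4 was the highest HFD control mouse for 4 of 5 listed natural killer markers. Ifit1, at 3.23 with a highest other value of 3.74, and Oas2, at 4.49 with a highest other value of 4.92, did not exceed the other HFD control mice. Of the listed interferon-stimulated genes, only Ifit1, Oas2 and Usp18 lay below the mean of the other HFD control mice. Mx2 was 0.44 above that mean in mouse 4, Isg15 0.33 and Oasl2 0.21. Mouse 4 was the highest HFD control mouse for 23 of 35 interferon-stimulated genes, 5 of 7 genes of the immunoproteasome and activator list and 6 of 8 class II genes. These genes were singled out after their values were seen.

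**Figure D5:**
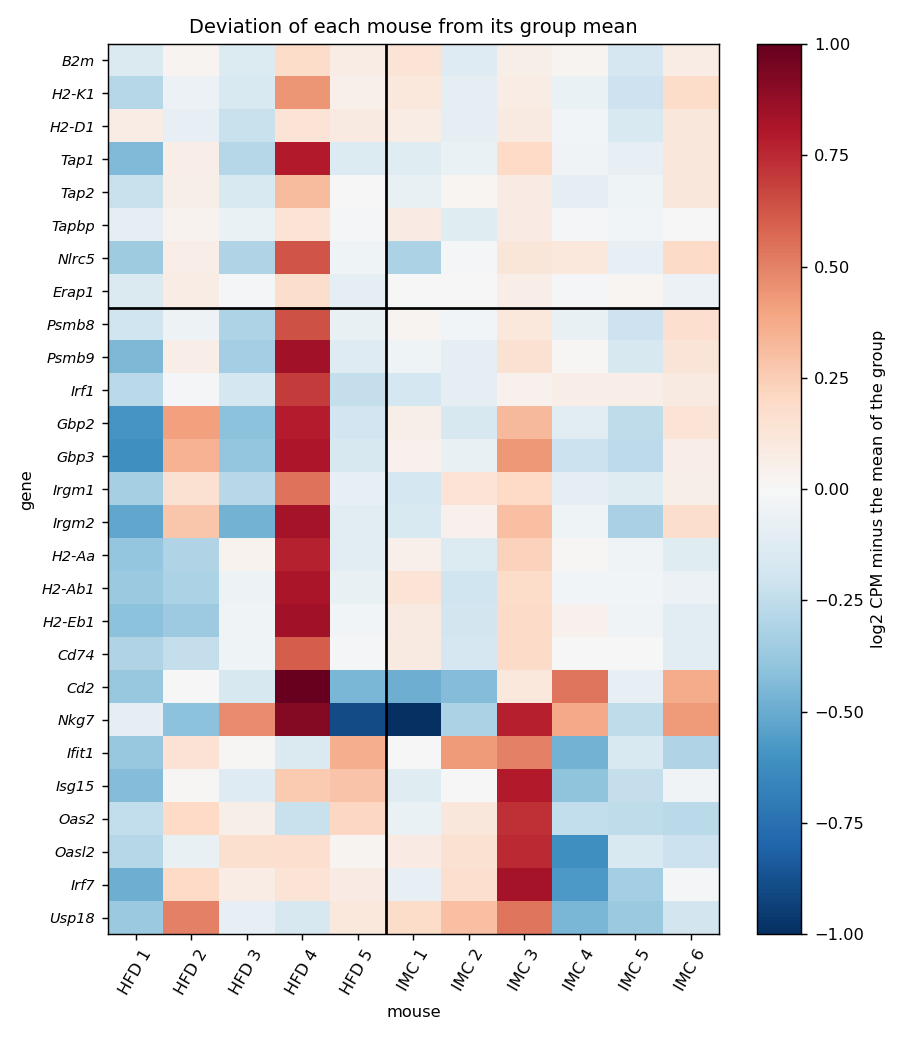
Deviation of each mouse (columns) from the mean of its own group in log2 CPM (colour, red higher and blue lower, capped at 1) for the 8 members (above the line) and related genes (below it). HFD mouse 4 lies above its group mean for all 8 members, from Psmb8 down to Nkg7, and for Isg15, Oasl2 and Irf7. It lies below that mean for Ifit1, Oas2 and Usp18. IMC mouse 3 lies above its group mean for every gene shown.

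Across the 11 mice, after the mean of each group was taken away, the members varied together. Pearson's r was positive for 27 of 28 pairs, with a median of 0.69 and a range from -0.01 for H2-D1 with Erap1 to 0.95 for Tap1 with Tap2. Without HFD mouse 4 the median was 0.46 and the range -0.48 to 0.91. Tap1 with Tap2 (0.91), B2m with H2-K1 (0.89) and Tap1 with Nlrc5 (0.85) remained high without it. All values of a mouse share its library, and these correlations are descriptions without a test.

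The listed genes most like each member in the same way, up to 3 for each, included several of the same system. Tap1 was most like Psmb9 (r = 0.99 over 11 mice, 0.96 without HFD mouse 4), then AW112010 (0.98 and 0.92). Psmb9 and Tap1 are divergent neighbours whose RefSeq starts lie 226 bases apart, and 212 exon bases of Tap1 also lie in an exon of a Psmb9 transcript on the opposite strand in GENCODE. How reads on that stretch were counted is not known, and their part in this r was not tested. Tap2 was most like Tapbpl (0.98 and 0.94), a relative of tapasin, then Irgm1 (0.96 and 0.90) and Prkd2 (0.95 and 0.94). Nlrc5 was most like the heavy chain gene H2-Q5 (0.98 and 0.95), then Ifi47 (0.94 and 0.84) and Parvg (0.93 and 0.84). H2-K1 was most like the heavy chain gene H2-Q4 (0.96 and 0.91), then Gramd3 (0.95 and 0.89) and the immunoproteasome subunit Psmb8 (0.93 and 0.83). Of their 50-base stretches, H2-Q5 shares 40.1% and H2-Q4 24.3% with other transcripts. The part of reads on such stretches in these r was not tested.

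Erap1 was most like Cyp27a1 (0.96 and 0.91), Gbp7 (0.94 and 0.87) and Gbp5 (0.92 and 0.83). B2m was most like Coq2 (0.92 and 0.96), Naaa (0.91 and 0.88) and the proteasome activator subunit Psme2 (0.89 and 0.85). Tapbp was most like Becn1 (0.89 and 0.87), Naaa (0.89 and 0.83) and AA388235 (0.86 and 0.84). H2-D1 was most like Srsf9 (0.93 and 0.95), Tha1 (0.90 and 0.89) and Tmem261 (0.88 in both).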

How the data were processed

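Each library was made from total RNA of gonadal WAT of 1 mouse with a directional mRNA kit. The authors used Trim Galore and FastQC on the reads, and STAR for alignment to mm10 (UCSC transcripts) and for counts per gene. The authors removed genes with low counts, scaled libraries by the upper quartile with edgeR and deposited log2 CPM values. The deposited table also holds the authors' own fold change, mean level, likelihood ratio, p-value and FDR columns, which were not used.

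The log2 CPM were compared with limma 3.58.1 in R 4.3.3 (trend, group as the only factor, Benjamini-Hochberg over 12787 genes, threshold 0.05). Reads recovered from the CPM steps (100% whole, within 0.05 of a read) gave the depth and were used for voom and other scalings. The spread between mice exceeded counting error for all members in each group. Separate mice are the replicates, and no batch is labelled. Single differences were compared by exact permutation. Steps were tested on simulated data.

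Named genes were the 8 members, in each pathway list the 3 with the smallest limma p, and the 3 genes most like each member, beside those said to be chosen after their values were seen. H2-T22, H2-T23, H2-M3, H2-Q4, Hspa5, H2-DMb1, Parp9 and Irf1 fall outside this rule and were also named after their values were seen. A gene that this rule would name is not reported here. The members and lists were chosen with earlier results of these data known. The alternatives were another variance model, voom, 2 scalings, log2(CPM + 1), a minimum mean of 1 log2 CPM and leaving out each mouse. The list counts without HFD mouse 4 were chosen after seeing the data.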

Additional observations from a re-analysis of the deposited data

Results flagged for a closer look

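Each group of mice was searched for a value far from the rest in the 8 levels and the 8 within-mouse differences, 32 groups in all, and 1 was found, where chance gives about 1 in 20. Nlrc5 minus B2m was -6.09 on the log2 scale in IMC mouse 1 and between -5.57 and -5.52 in the other IMC-treated mice, a gap of 0.899 of the whole range, above the 95% critical value of Dixon's test. Both genes contributed, since IMC mouse 1 had the lowest Nlrc5 (5.32 log2 CPM) and the highest B2m (11.41 log2 CPM) of its group.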

How the results depend on the processing

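The count of genes called over all listed genes stayed between 4299 and 5463 in every setting. B2m was called by voom (0.22, adjusted p = 0.0441) and without the trend (0.22, adjusted p = 0.0425). The sign changed for Nlrc5 under median-of-ratios scaling (0.0063) and for Erap1 under total-read scaling (-0.031). These scalings moved the median of all genes by 0.01 and -0.03. The other 58 values from alternatives that kept all mice held their direction and their side of the threshold. When single mice were left out, the log2 difference ranged from 0.18 to 0.26 for B2m, 0.089 to 0.27 for H2-K1, -0.12 to 0.013 for Tap2, -0.091 to 0.15 for Nlrc5 and -0.036 to 0.046 for Erap1. The within-mouse difference ranged from -0.092 to 0.0075 for H2-K1 minus B2m, -0.37 to -0.29 for H2-D1 minus B2m, 0.19 to 0.36 for H2-K1 minus H2-D1, 0.15 to 0.40 for Tapbp minus Tap1, -0.20 to -0.028 for Tap1 minus Tap2, 0.061 to 0.29 for Erap1 minus Tap1, -0.27 to -0.11 for Nlrc5 minus B2m and -0.50 to -0.28 for Tap1 minus B2m. A quasi-likelihood count test on recovered reads was planned and not run, because the deposited unit is log2 and not counts. No paired analysis was possible because the labels give no shared replicate numbers. The cause of the changes was not tested.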

Other observations

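Interferon-stimulated genes were high in IMC mouse 3, which was the highest IMC-treated mouse for 26 of 35 listed members of that list and for 12.8% of all listed genes. For 17 of these 26, and of the 23 with HFD mouse 4 as the highest HFD control mouse, both mice were the highest of their groups. This was noticed after the values were seen. Compared with the mean of the other IMC-treated mice, Irf7, a factor of the type I interferon response, was 1.002 higher on the log2 scale, Isg15 0.95, Oasl2 0.90 and Oas2 0.88. The guanylate-binding protein gene Gbp2 was 0.39 higher and Psmb9 0.18. In HFD mouse 4, against the other HFD control mice, the order of Psmb9, Gbp2, Isg15 and Irf7 was the other way round, with Psmb9 1.05 and Gbp2 0.98 higher, Isg15 0.33 and Irf7 0.17 higher, and Oas2 0.28 lower. Tap1 in IMC mouse 3, at 5.88 log2 CPM, was the highest of its group but below the 5.96 of HFD mouse 2 and the 6.69 of HFD mouse 4.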
